A study of Homo sapiens with 12 samples.

Results

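Heme synthesis and iron-sulfur cluster assembly are the pathways by which a cell turns iron into working cofactors, and their genes were followed in HepG2 cells, an established human liver cancer line of WT genotype, in 4 culture media. The members were chosen by symbol from a list of 37 genes; 32 of them were among the 10940 genes of the count table, and all 32 passed the filter on low counts. ABCB6, HMOX2, BOLA1, BOLA2 and NDOR1 were not analysed here. The media were Plasmax-TE+Fe (Plasmax prepared without its trace elements, with iron put back), Plasmax-TE (the same without the iron), Plasmax (modelled on the nutrients of human plasma) and EMEM (Eagle's minimum essential medium, in which the line was maintained and seeded). Each medium carried 10% heat-inactivated fetal bovine serum, so no group was free of serum. Cells met their medium 24 h after seeding, were fed again after 48 h and were collected at 96 h. Transcripts were counted by their 3′ ends (QuantSeq) in 3 libraries per medium, 12 in all.

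Heme is built in steps that begin and end in the mitochondrion: aminolevulinate is made from glycine and succinyl-CoA, a tetrapyrrole ring is assembled in the cytosol, and iron is inserted in the last step. Iron-sulfur clusters are put together on a mitochondrial scaffold from sulfur taken off cysteine, iron and electrons passed along by a ferredoxin, and are then handed to enzymes by late factors. A second set of proteins in the cytosol builds clusters for cytosolic and nuclear enzymes such as DNA polymerases. Liver is among the main sites of heme synthesis, much of it for cytochromes P450.

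Counts per library, summed over the 10940 genes kept after repeated entries were dropped, ran from 1562125 to 2384090, and levels below are CPM (counts scaled to a common library size with TMM factors). All 10 hepatocyte markers looked up were in the table, with ALB between 3890 and 20300 CPM, while of the fibroblast, endothelial and blood markers 2 of 6, 0 of 4 and 2 of 6 were in it. On principal component 2, with 17.6% of the variance over all genes, replicate 1 of Plasmax-TE (35.49) and replicate 2 of Plasmax-TE+Fe (31.96) stood apart from the other libraries (-19.59 to 8.11). These libraries carry the consecutive numbers 87 and 88. The labels do not state that replicate libraries were grown as separate cultures, and p-values therefore describe library-to-library spread that may be technical. Because CPM from 3′ ends is not a molar unit, levels are compared between media and not between genes.

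Members called between the media are counted here beside the share of all genes called. Whether the members as a set differed from other genes was not tested. By edgeR's quasi-likelihood test, adjusted over all 10459 genes tested (Benjamini-Hochberg, threshold 0.05), 4 of 32 members differed among the 4 media, where 18.0% of all genes did. They were ALAD and FLVCR1 on the heme side and FDXR and LYRM4 in the mitochondrial iron-sulfur core. The count was 2 without EMEM replicate 1, 2 or 3. It was 7 when 3 runs of library numbers (85 to 88, 89 to 92 and 93 to 96) entered the model as a block (the library-number block). These library runs were cut from numbers without a gap, and the division was made here. By role, the test called 1 of 7 heme enzymes, 1 of 2 heme transporters, 2 of 8 core factors, 0 of 6 late mitochondrial factors and 0 of 9 cytosolic factors. In Plasmax against EMEM, 3 members rose and 2 fell (21.4% of all genes were called, 9.90% higher and 11.5% lower), with a median log2 fold change of 0.00 over the members and -0.01 over all genes. Plasmax-TE+Fe against EMEM had 2 members higher and 2 lower (9.65% of all genes called, 3.67% higher and 5.98% lower). Plasmax-TE against EMEM had 1 higher and 0 lower (4.81% of all genes called, 1.62% higher and 3.19% lower). In bulk RNA, fewer cells of a type and less RNA per cell cannot be told apart. The comparisons with EMEM share its 3 libraries, so they are not independent of each other, and the same holds for the other comparisons that share a medium.

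**Figure D1:**
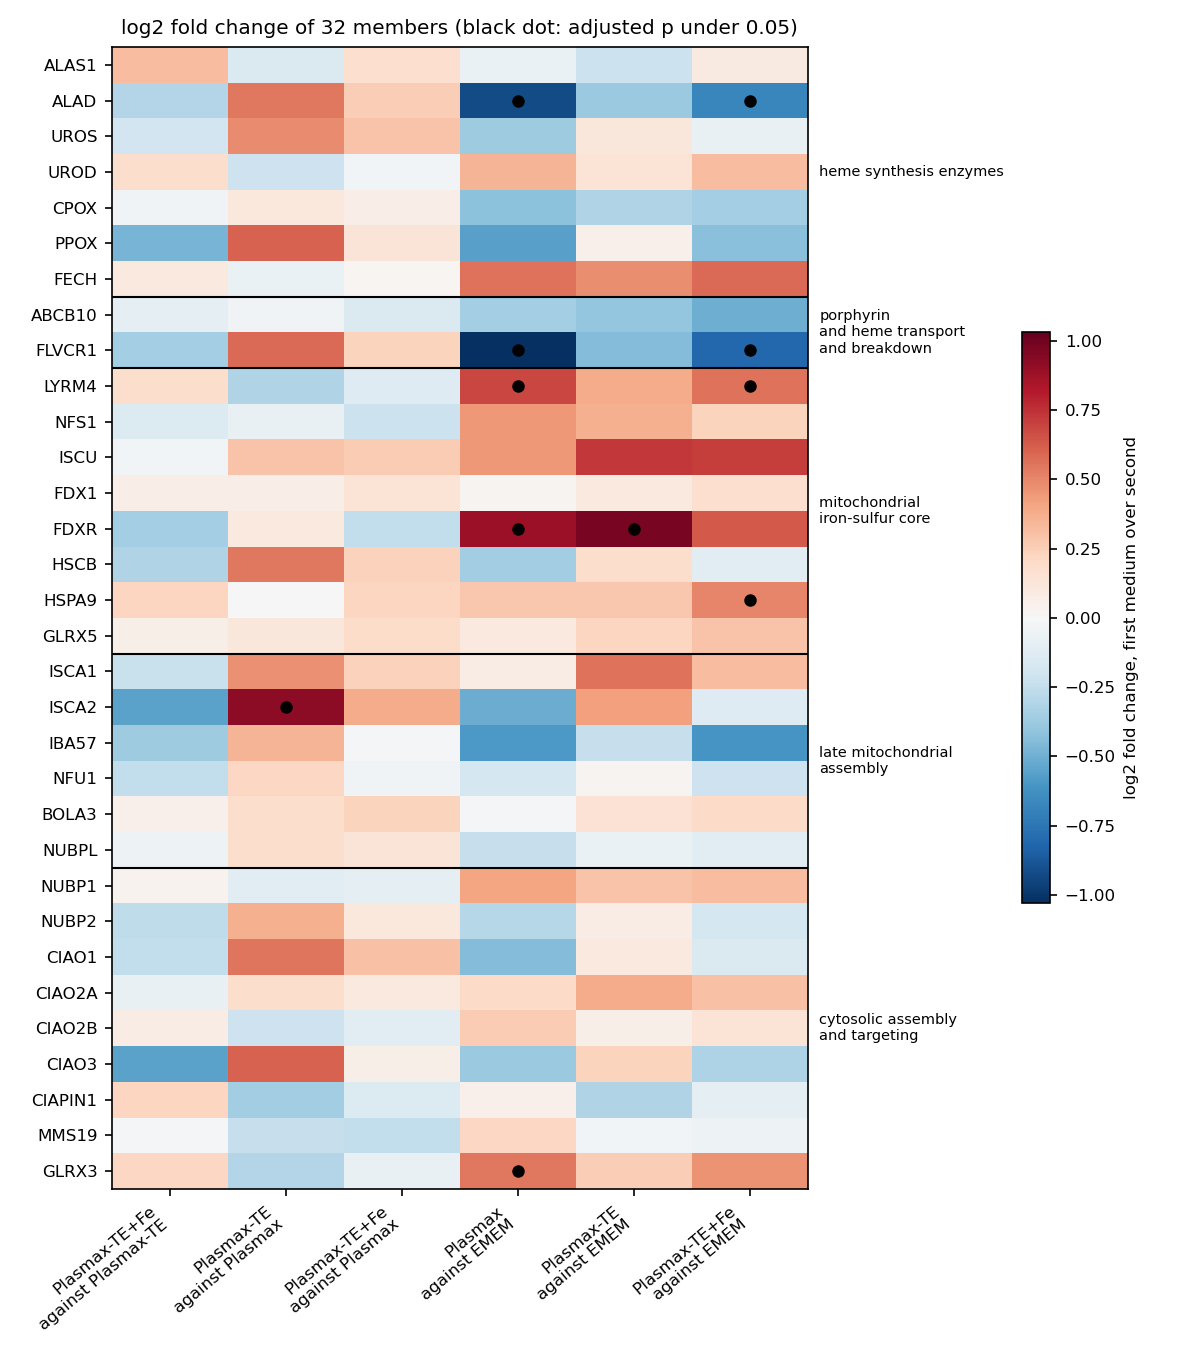
Log2 fold changes of the 32 measured members in the 6 comparisons, with members ordered by role and a dot on each call (edgeR, Benjamini-Hochberg adjusted p under 0.05). The calls lie mostly in the comparisons with EMEM, 5 of them in Plasmax against EMEM, and the members range there from -1.03 (FLVCR1) to 0.88 (FDXR).

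The pair of genes that fell on the heme side are shown with the 250 bases before their RefSeq start sites (GRCh38.p14), as the letters next to which their transcription begins. The ALAD promoter lies at chr9:113401285-113401534 (minus strand, the upstream of its listed starts) and that of FLVCR1 at chr1:212858025-212858274 (plus strand). Capitals mark matches on either strand to the GC box GGGCGG, the letters bound by SP1-type factors, and to the CCAAT box.
ALAD: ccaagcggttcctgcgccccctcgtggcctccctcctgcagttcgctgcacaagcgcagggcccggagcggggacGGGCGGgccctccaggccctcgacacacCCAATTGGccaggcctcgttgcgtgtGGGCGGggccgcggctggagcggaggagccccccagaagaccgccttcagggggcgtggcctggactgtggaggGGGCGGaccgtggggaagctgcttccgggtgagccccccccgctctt
FLVCR1: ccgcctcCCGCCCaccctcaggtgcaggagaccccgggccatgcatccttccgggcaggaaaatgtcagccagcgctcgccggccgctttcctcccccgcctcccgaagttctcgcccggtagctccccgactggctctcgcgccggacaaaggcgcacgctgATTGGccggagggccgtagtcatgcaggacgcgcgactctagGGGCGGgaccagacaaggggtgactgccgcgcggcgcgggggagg
The ALAD window held 3 GC boxes and a pair of overlapping CCAAT matches on opposite strands, and the FLVCR1 window 2 GC boxes and 1 CCAAT box. Neither motif is particular to these genes: the GC box was in 24 of 29 members with a promoter entry (82.8%) and in 68.6% of the promoters of genes in the table, and CCAAT in 34.5% and 35.7%. UROS, GLRX3 and NUBP2 had no entry. A match is a description of the letters and not a site of binding.

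ALAD (ENSG00000148218) encodes the zinc enzyme that joins aminolevulinate molecules into porphobilinogen, the second step of heme synthesis. Its level was 29.2, 37.0 and 27.9 CPM in Plasmax-TE+Fe, 39.5, 40.9 and 34.8 CPM in Plasmax-TE, 32.0, 25.5 and 22.3 CPM in Plasmax, and 59.7, 47.3 and 43.9 CPM in EMEM. All 9 libraries of the Plasmax media lay below the lowest EMEM library, and within the Plasmax media the Plasmax-TE libraries were the highest except for Plasmax-TE+Fe replicate 2. ALAD fell in Plasmax, to 26.6 ± 4.91 CPM against 50.3 ± 8.30 CPM in EMEM (SD, n = 3 each), a log2 fold change of -0.92 ± 0.20 (SE; 95% interval -1.33 to -0.51; 0.529-fold; edgeR adjusted p = 0.0022). This call held with each of the 12 libraries left out in turn. It also fell in Plasmax-TE+Fe, to 31.4 ± 4.92 CPM, by a log2 fold change of -0.67 ± 0.19 against EMEM (edgeR adjusted p = 0.029). That second call was lost without Plasmax-TE+Fe replicate 1 or 3 or EMEM replicate 1 or 2 (edgeR adjusted p between 0.058 and 0.14). In Plasmax-TE it averaged 38.4 ± 3.21 CPM and did not pass against EMEM (-0.38 ± 0.19, edgeR adjusted p = 0.29). Against Plasmax, Plasmax-TE stood 0.54 ± 0.20 higher on the log2 scale without passing (edgeR adjusted p = 0.086), and did pass with the library-number block (edgeR adjusted p = 0.034).

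FLVCR1 (ENSG00000162769), a transporter of the plasma membrane described as a heme exporter and as a choline carrier, had the lowest fold change of any member. It stood at 23.2, 15.9 and 16.9 CPM in Plasmax-TE+Fe, at 24.9, 22.9 and 24.5 CPM in Plasmax-TE, at 13.2, 12.5 and 21.9 CPM in Plasmax, and at 34.0, 33.2 and 31.6 CPM in EMEM. Again every library of the Plasmax media lay below every EMEM library, and Plasmax replicate 3 was well above the other 2 of its medium. FLVCR1 fell in Plasmax, to 15.9 ± 5.23 CPM against 33.0 ± 1.20 CPM in EMEM (SD, n = 3 each), a log2 fold change of -1.03 ± 0.23 (95% interval -1.52 to -0.55; 0.488-fold; edgeR adjusted p = 0.0032), and this held with each library left out in turn. In Plasmax-TE+Fe it fell to 18.7 ± 3.95 CPM, by -0.81 ± 0.22 against EMEM (edgeR adjusted p = 0.026). That comparison lost its call without Plasmax-TE+Fe replicate 2 or 3 or any 1 EMEM library (edgeR adjusted p between 0.064 and 0.11), and without both libraries that stood apart (edgeR adjusted p = 0.056). In Plasmax-TE, at 24.1 ± 1.04 CPM, it did not pass against EMEM (-0.45 ± 0.22, edgeR adjusted p = 0.27) or against Plasmax (0.58 ± 0.24, edgeR adjusted p = 0.12). Without Plasmax replicate 3 the difference between Plasmax-TE and Plasmax was 0.90 and passed (edgeR adjusted p = 0.028).

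The enzymes that open and close heme synthesis did not pass in any comparison. ALAS1 (ENSG00000023330), the first and rate-limiting enzyme, was measured at 9.03, 7.71 and 15.9 CPM in Plasmax-TE+Fe, at 12.5, 5.84 and 8.16 CPM in Plasmax-TE, at 16.9, 8.51 and 4.66 CPM in Plasmax, and at 14.1, 6.39 and 10.9 CPM in EMEM. Its libraries overlapped in every comparison and rested on 10 to 32 counts each. The interval for Plasmax-TE+Fe against Plasmax-TE ran from -0.57 to 1.21 on the log2 scale. It held no difference as well as a rise beyond a log2 fold change of 1, and this depth could not tell them apart. FECH (ENSG00000066926), the ferrochelatase that inserts iron into protoporphyrin and itself holds an iron-sulfur cluster, was measured at 18.1, 14.4 and 12 CPM in Plasmax-TE+Fe, at 11.9, 18.0 and 11.4 CPM in Plasmax-TE, at 11.3, 13.5 and 18.6 CPM in Plasmax, and at 9.63, 9.80 and 10.4 CPM in EMEM. All 9 libraries of the Plasmax media lay above the 3 EMEM libraries, on 15 to 42 counts per library. GENCODE lists a pseudogene of FECH, FECHP1, whose reads may be shared. The differences from EMEM did not pass: 0.58 ± 0.28 in Plasmax-TE+Fe, 0.48 ± 0.29 in Plasmax-TE and 0.56 ± 0.29 in Plasmax (edgeR adjusted p = 0.22, 0.39 and 0.18).

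Of the enzymes between them, ALAD passed as described, and UROS, UROD, CPOX and PPOX stayed below the threshold. UROS, which closes the tetrapyrrole ring, ranged from 8.15 to 23.4 CPM over the 12 libraries and had a log2 fold change of -0.37 ± 0.31 in Plasmax against EMEM. UROD, which removes carboxyl groups from uroporphyrinogen, ranged from 52.0 to 103 CPM, with 0.35 ± 0.19 in the same comparison. CPOX, the coproporphyrinogen oxidase, was between 19.0 and 39.2 CPM and had -0.42 ± 0.23 (edgeR adjusted p = 0.21). All its Plasmax libraries lay below all its EMEM libraries, but only just (30.1 CPM in Plasmax replicate 1, 30.2 CPM in EMEM replicate 1). PPOX, which makes protoporphyrin, was scarce at 4.39 to 10.3 CPM and had -0.56 ± 0.34. The median over the 7 enzymes was -0.37 in Plasmax against EMEM, where the median of all genes was -0.01, with 2 enzymes above 0 and 5 below. In Plasmax-TE against EMEM it was 0.05, and in Plasmax-TE+Fe against EMEM -0.08. ABCB10, a transporter of the inner mitochondrial membrane, was between 4.95 and 13.5 CPM and did not pass (-0.50 ± 0.35 in Plasmax-TE+Fe against EMEM, edgeR adjusted p = 0.42).

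**Figure D2:**
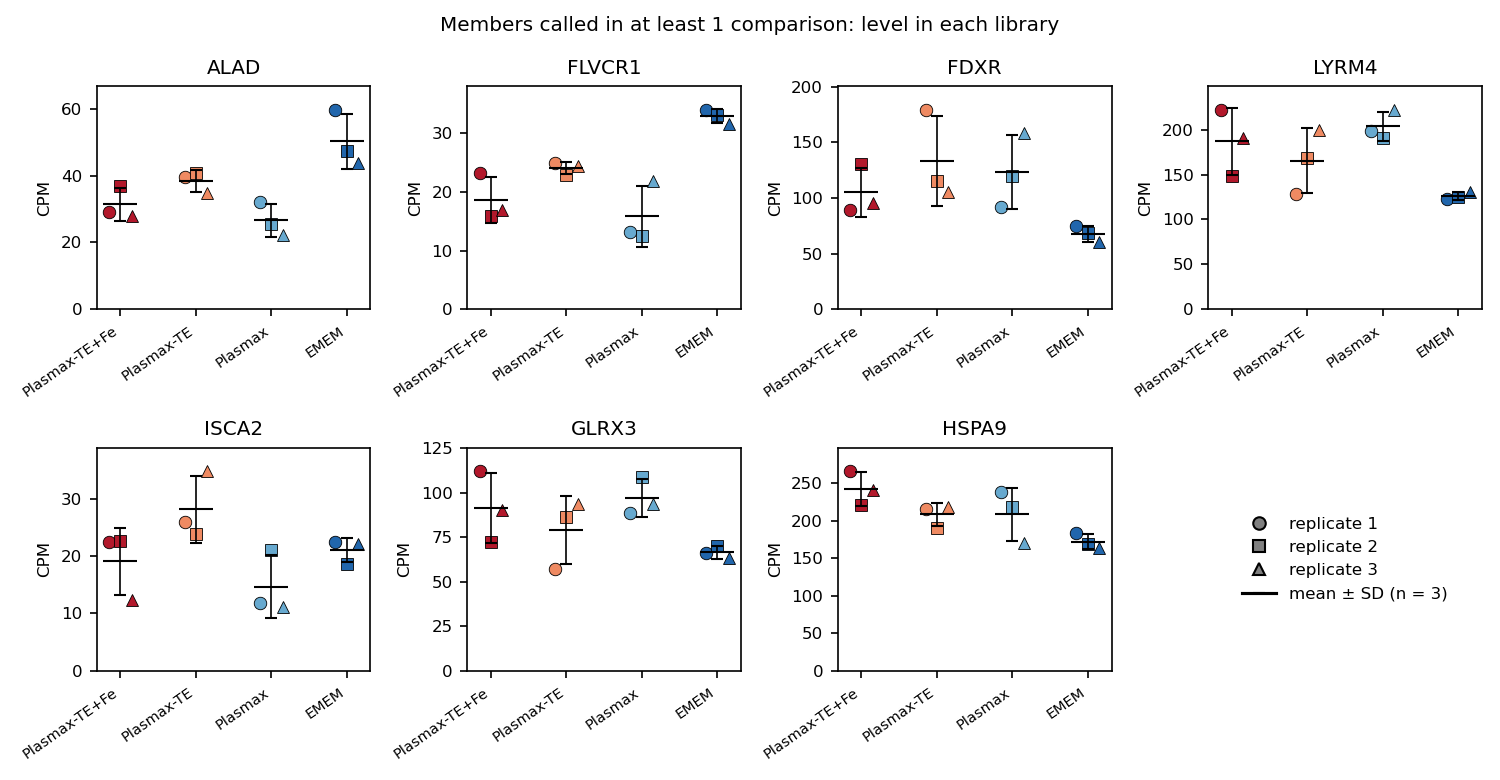
CPM of the 7 members called in at least 1 comparison, by medium, with 1 point per library and bars for mean ± SD (n = 3). ALAD and FLVCR1 are highest in EMEM (43.9 to 59.7 and 31.6 to 34.0 CPM), and FDXR is lowest there (60.0 to 74.4 CPM).

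In the mitochondrial iron-sulfur core 2 of 8 members rose in Plasmax against EMEM, where 9.90% of all genes did. The median log2 fold change over the 8 was 0.36, with 7 of them above 0, beside -0.01 for all genes. The medians were 0.32 in Plasmax-TE against EMEM, with 8 of 8 above 0, and 0.39 in Plasmax-TE+Fe against EMEM, with 7 of 8 above 0, beside medians of all genes of 0.00 and 0.01. The promoters of the called pair are printed for comparison with those of the heme side, again as 250 bases before the RefSeq start in GRCh38.p14. The FDXR window lies at chr17:74872995-74873244 (minus strand, the upstream of its listed starts) and that of LYRM4 at chr6:5260951-5261200 (minus strand). Capitals mark GC boxes on either strand and, in LYRM4, 1 match to TGATGNAA, the letters of the composite element bound by ATF4.
FDXR: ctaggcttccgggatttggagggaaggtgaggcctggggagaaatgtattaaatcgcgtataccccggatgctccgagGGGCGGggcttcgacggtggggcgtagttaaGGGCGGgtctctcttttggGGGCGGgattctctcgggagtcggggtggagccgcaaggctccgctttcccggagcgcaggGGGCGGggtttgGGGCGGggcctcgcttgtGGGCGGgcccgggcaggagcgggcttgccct
LYRM4: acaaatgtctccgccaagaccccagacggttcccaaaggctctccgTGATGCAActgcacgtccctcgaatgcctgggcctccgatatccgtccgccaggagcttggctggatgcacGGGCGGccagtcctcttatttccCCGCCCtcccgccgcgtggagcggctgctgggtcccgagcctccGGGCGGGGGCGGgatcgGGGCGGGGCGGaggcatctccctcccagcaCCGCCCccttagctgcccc
FDXR held 6 GC boxes and LYRM4 7, some of them directly adjoining or sharing a base, and neither window held CCAAT. The TGATGNAA letters were in 3.14% of all 35116 promoters, in 1.25% of the promoters of genes in the table and in 1 of 29 member promoters. The GC content of the windows was 67.6% and 69.6%, beside a median of 68.8% over the members and 58% over all promoters.

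FDXR (ENSG00000161513) encodes ferredoxin reductase, which passes electrons from NADPH to the ferredoxins used in cluster assembly and in heme A and steroid synthesis. It was counted at 89, 130 and 95.6 CPM in Plasmax-TE+Fe, at 179, 115 and 105 CPM in Plasmax-TE, at 92.2, 120 and 158 CPM in Plasmax, and at 74.4, 68.1 and 60.0 CPM in EMEM. Every library of the Plasmax media lay above every EMEM library, while the Plasmax media overlapped one another. FDXR rose in Plasmax-TE, to 133 ± 40.2 CPM against 67.5 ± 7.25 CPM in EMEM (SD, n = 3 each), a log2 fold change of 0.98 ± 0.22 (95% interval 0.52 to 1.44; 1.97-fold; edgeR adjusted p = 0.011). It rose in Plasmax, to 123 ± 33.2 CPM, by 0.88 ± 0.22 against EMEM (1.84-fold, edgeR adjusted p = 0.0074). In Plasmax-TE+Fe, at 105 ± 21.7 CPM, the difference of 0.63 ± 0.22 did not pass (edgeR adjusted p = 0.076), and it passed with the library-number block (edgeR adjusted p = 0.045). The difference between Plasmax-TE+Fe and Plasmax-TE was itself not called (-0.35 ± 0.21, edgeR adjusted p = 0.66). The call in Plasmax was lost without Plasmax replicate 3 (0.66, edgeR adjusted p = 0.051). The call in Plasmax-TE was lost without Plasmax-TE replicate 1 or EMEM replicate 2 or 3 (0.71 to 0.99, edgeR adjusted p between 0.050 and 0.073).

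LYRM4 (ENSG00000214113), the small protein that holds the cysteine desulfurase NFS1 in its active form, was the other core gene to pass. Its level was 222, 148 and 191 CPM in Plasmax-TE+Fe, 128, 168 and 200 CPM in Plasmax-TE, 199, 191 and 222 CPM in Plasmax, and 123, 125 and 131 CPM in EMEM. The EMEM libraries lay close together and below all libraries of Plasmax and Plasmax-TE+Fe, but Plasmax-TE replicate 1 lay among them. LYRM4 rose in Plasmax, to 204 ± 16.1 CPM against 127 ± 4.22 CPM in EMEM (SD, n = 3 each), a log2 fold change of 0.69 ± 0.17 (95% interval 0.33 to 1.05; 1.61-fold; edgeR adjusted p = 0.0074), and this held with each library left out in turn. It rose in Plasmax-TE+Fe, to 187 ± 37.4 CPM, by 0.56 ± 0.17 against EMEM (1.48-fold, edgeR adjusted p = 0.045). This smaller rise was lost without Plasmax-TE+Fe replicate 1 or 3, Plasmax-TE replicate 2, Plasmax replicate 1 or 2, or any 1 EMEM library (edgeR adjusted p between 0.056 and 0.21). In Plasmax-TE it averaged 165 ± 35.7 CPM and did not pass against EMEM (0.38 ± 0.17, edgeR adjusted p = 0.24).

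HSPA9 (ENSG00000113013), the mitochondrial HSP70 chaperone that helps to release clusters from the scaffold, passed in 1 comparison. It stood at 266, 221 and 241 CPM in Plasmax-TE+Fe, at 216, 191 and 219 CPM in Plasmax-TE, at 239, 218 and 170 CPM in Plasmax, and at 184, 169 and 164 CPM in EMEM. The Plasmax-TE+Fe libraries lay above all libraries of Plasmax-TE and of EMEM. HSPA9 rose in Plasmax-TE+Fe, to 243 ± 22.6 CPM against 172 ± 10.2 CPM in EMEM (SD, n = 3 each), a log2 fold change of 0.50 ± 0.15 (95% interval 0.19 to 0.81; 1.41-fold; edgeR adjusted p = 0.039). The call was lost without Plasmax-TE+Fe replicate 1 or 3, Plasmax-TE replicate 2 or any 1 EMEM library (edgeR adjusted p between 0.050 and 0.15). Against Plasmax-TE the difference of 0.22 ± 0.15 did not pass (edgeR adjusted p = 0.71). GENCODE lists small nucleolar RNAs within HSPA9 and a pseudogene of it, HSPA9P1, whose reads may be shared.

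ISCU (ENSG00000136003), the scaffold on which clusters are built, was read differently with and without 1 library. Its level was 105, 78.6 and 88.6 CPM in Plasmax-TE+Fe, 76.4, 84.1 and 118 CPM in Plasmax-TE, 101, 93.6 and 35.4 CPM in Plasmax, and 56.5, 55.8 and 54.8 CPM in EMEM. Apart from Plasmax replicate 3, the lowest of all 12, the libraries of the Plasmax media lay above those of EMEM. With all libraries ISCU did not pass in Plasmax-TE+Fe (0.71 ± 0.27, edgeR adjusted p = 0.10), in Plasmax-TE (0.73 ± 0.27, edgeR adjusted p = 0.13) or in Plasmax (0.45 ± 0.27, edgeR adjusted p = 0.26) against EMEM. Without Plasmax replicate 3 it passed in each of them, with 0.71, 0.73 and 0.80 (edgeR adjusted p = 0.013, 0.018 and 0.0070). A pseudogene, ISCUP1, is listed for it.

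The remaining core members did not pass in any comparison. NFS1 (ENSG00000244005), the desulfurase that supplies the sulfur, was at 34.4, 38.6 and 20.4 CPM in Plasmax-TE+Fe, at 40.6, 31.5 and 31.0 CPM in Plasmax-TE, at 32.6, 43.1 and 33.1 CPM in Plasmax, and at 26.3, 28.1 and 25.0 CPM in EMEM. Only Plasmax-TE+Fe replicate 3 among the Plasmax media lay below the EMEM libraries (0.45 ± 0.23 in Plasmax against EMEM, edgeR adjusted p = 0.16). GLRX5 (ENSG00000182512), the glutaredoxin that carries new clusters onward, was at 380, 346 and 401 CPM in Plasmax-TE+Fe, at 367, 342 and 369 CPM in Plasmax-TE, at 314, 305 and 370 CPM in Plasmax, and at 297, 300 and 326 CPM in EMEM. It varied little, and its widest difference was 0.29 ± 0.13 in Plasmax-TE+Fe against EMEM (edgeR adjusted p = 0.19). FDX1, a ferredoxin, ranged from 24.2 to 36.5 CPM and HSCB, the cochaperone of HSPA9, from 7.24 to 16.7 CPM. GENCODE places other genes over NFS1 (ROMO1), GLRX5 (SNHG10) and HSCB (CHEK2) on the opposite strand. It does so too for the members PPOX (B4GALT3), NUBP1 (TVP23A), CIAO3 (HAGHL) and CIAPIN1 (COQ9). Overlap was looked up over all exons, and not only at the 3′ ends where the reads lie. No source used here gives the strand setting of the counting, so whether reads of such pairs were mixed is not known. Over NFS1 (AL109827.1) and CPOX (AC021660.3) a gene also lies on the same strand. No strand setting would separate reads from the bases they share.

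Of the late factors, which turn the first clusters into larger ones and deliver them, 1 of 6 members was called, and this was also the only member called in Plasmax-TE against Plasmax (11.2% of all genes called, 5.61% higher and 5.63% lower). ISCA2 (ENSG00000165898), which acts with ISCA1 and IBA57 in forming the larger clusters, was at 22.4, 22.6 and 12.4 CPM in Plasmax-TE+Fe, at 26.0, 23.8 and 34.8 CPM in Plasmax-TE, at 11.9, 21.0 and 11.2 CPM in Plasmax, and at 22.5, 18.7 and 22.2 CPM in EMEM. The Plasmax-TE libraries were the highest of the 12. ISCA2 rose in Plasmax-TE, to 28.2 ± 5.81 CPM against 14.7 ± 5.49 CPM in Plasmax (SD, n = 3 each), a log2 fold change of 0.92 ± 0.28 (95% interval 0.35 to 1.50; 1.90-fold; edgeR adjusted p = 0.036). The call was lost without Plasmax-TE replicate 1 or 3 or Plasmax replicate 1 or 3 (0.74 to 0.98, edgeR adjusted p between 0.054 and 0.13). With iron put back it averaged 19.1 ± 5.80 CPM in Plasmax-TE+Fe, and the difference of -0.55 ± 0.26 from Plasmax-TE did not pass (95% interval -1.10 to 0.00, edgeR adjusted p = 0.54). The gene NPC2 shares exon bases with ISCA2 on the opposite strand, at a position not looked up, and a pseudogene ISCA2P1 is listed. Whether either added reads is not known, so the ISCA2 counts are uncertain.

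All 6 late factors had a fold change above 0 in Plasmax-TE against Plasmax, with a median of 0.28 beside 0.02 for all genes, and 5 of them did not pass. ISCA1 ranged from 19.3 to 32.5 CPM and all its Plasmax-TE libraries lay above all its Plasmax libraries (0.47 ± 0.19, edgeR adjusted p = 0.11). IBA57 ranged from 7.91 to 16.5 CPM (0.35 ± 0.29). NFU1 and BOLA3, which hand clusters to enzymes such as lipoate synthase, were at 72.0 to 114 and 56.3 to 86.1 CPM (0.21 ± 0.16 and 0.18 ± 0.17). NUBPL, needed for the clusters of respiratory complex I, was at 74.0 to 113 CPM (0.18 ± 0.17). ISCA1 and BOLA3 have 5 and 4 pseudogenes in GENCODE, which may share their reads.

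The cytosolic machinery had 1 of 9 members called in any comparison, GLRX3 in Plasmax against EMEM, where 21.4% of all genes were called. GLRX3 (ENSG00000108010), a cytosolic glutaredoxin that carries clusters, stood at 112, 72.5 and 90.1 CPM in Plasmax-TE+Fe, at 57.4, 86.3 and 93.5 CPM in Plasmax-TE, at 88.4, 109 and 93.6 CPM in Plasmax, and at 66.1, 70.3 and 63.3 CPM in EMEM. All Plasmax and Plasmax-TE+Fe libraries lay above the EMEM libraries, and Plasmax-TE replicate 1 lay below them. GLRX3 rose in Plasmax, to 97.1 ± 10.8 CPM against 66.6 ± 3.51 CPM in EMEM (SD, n = 3 each), a log2 fold change of 0.54 ± 0.19 (95% interval 0.15 to 0.94; 1.46-fold; edgeR adjusted p = 0.047). This was lost without Plasmax-TE replicate 2, any 1 Plasmax library or any 1 EMEM library (edgeR adjusted p between 0.057 and 0.16). A pseudogene, GLRX3P2, is listed.

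CIAO1, a member of the complex that targets clusters to cytosolic and nuclear enzymes, ranged from 39.6 to 79.1 CPM. Its Plasmax libraries lay below those of EMEM and of Plasmax-TE without passing (-0.45 ± 0.19 in Plasmax against EMEM and 0.55 ± 0.19 in Plasmax-TE against Plasmax, edgeR adjusted p = 0.095 and 0.063). With the library-number block CIAO1 passed in both. NUBP1, a scaffold protein of the cytosolic pathway, ranged from 40.4 to 66.1 CPM and had 0.41 ± 0.17 in Plasmax against EMEM (edgeR adjusted p = 0.084), while NUBP2, its partner, ranged from 18.9 to 33.4 CPM and had -0.29 ± 0.23. CIAPIN1 (ENSG00000005194), which passes electrons to the scaffold, was at 69.2, 54.0 and 66.2 CPM in Plasmax-TE+Fe, at 39.5, 62.9 and 60.4 CPM in Plasmax-TE, at 70.9, 66.6 and 71.7 CPM in Plasmax, and at 64.2, 65.2 and 72.3 CPM in EMEM. Its lowest library was Plasmax-TE replicate 1, and no comparison passed (-0.36 ± 0.18 in Plasmax-TE against Plasmax, edgeR adjusted p = 0.21). CIAO2A was at 79.4 to 115 CPM, and MMS19 and CIAO2B, also of the targeting complex, were at 113 to 187 and 132 to 182 CPM. CIAO3, which links the scaffold to that complex, rested on 5 to 19 counts per library, and its interval for Plasmax-TE against Plasmax was as wide as -0.30 to 1.52.

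Putting iron back into Plasmax-TE called 0 of 32 members with edgeR and 0 with DESeq2, where 0.258% of all genes were called by edgeR (0.0861% higher and 0.172% lower). At an unadjusted p under 0.05 the count was 0 with either tool, where edgeR had 9.31% of all genes and DESeq2 7.18%. The 32 log2 fold changes of Plasmax-TE+Fe against Plasmax-TE ran from -0.55 to 0.32, with 12 above 0, 20 below, and a median of -0.06 beside 0.00 for all genes. All 32 of the 95% intervals contained 0, with a median half-width of 0.41. For 28 members the interval lay within a log2 fold change of 1 either way, and for ALAS1, PPOX, ISCA2 and CIAO3 it reached further. The libraries of Plasmax-TE+Fe and Plasmax-TE did not overlap for ISCA1, ISCA2 and HSPA9. With 3 libraries a medium, such a separation has an exact permutation p of no less than 0.1. The share of all genes without overlap was not counted, so no difference is read from these members. A missed threshold does not show that iron left these genes as they were.

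Plasmax-TE+Fe and Plasmax differ in the trace elements other than iron. Their comparison also called 0 of 32 members with edgeR and with DESeq2 (1.20% of all genes called by edgeR, 0.507% higher and 0.698% lower). At an unadjusted p under 0.05 the count was 0 with either tool, where edgeR had 13.6% of all genes and DESeq2 11.2%. Members ranged from -0.25 to 0.38 there. The corresponding values of Plasmax-TE against Plasmax ran from -0.36 to 0.92, with 5 of 32 members at an unadjusted p under 0.05 in edgeR (15.6%, beside 26.5% of all genes): ALAD, FLVCR1, CIAO1, ISCA2 and ISCA1. In this order they had 0.54, 0.58, 0.55, 0.92 and 0.47 in Plasmax-TE against Plasmax, and 0.25, 0.23, 0.30, 0.38 and 0.24 in Plasmax-TE+Fe against Plasmax. These genes were picked by their p in Plasmax-TE against Plasmax, so smaller values elsewhere can come from that choice. Since these comparisons also share the Plasmax libraries, the values are given side by side only. The difference between them is Plasmax-TE+Fe against Plasmax-TE, which was not called for any of these genes.

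**Figure D3:**
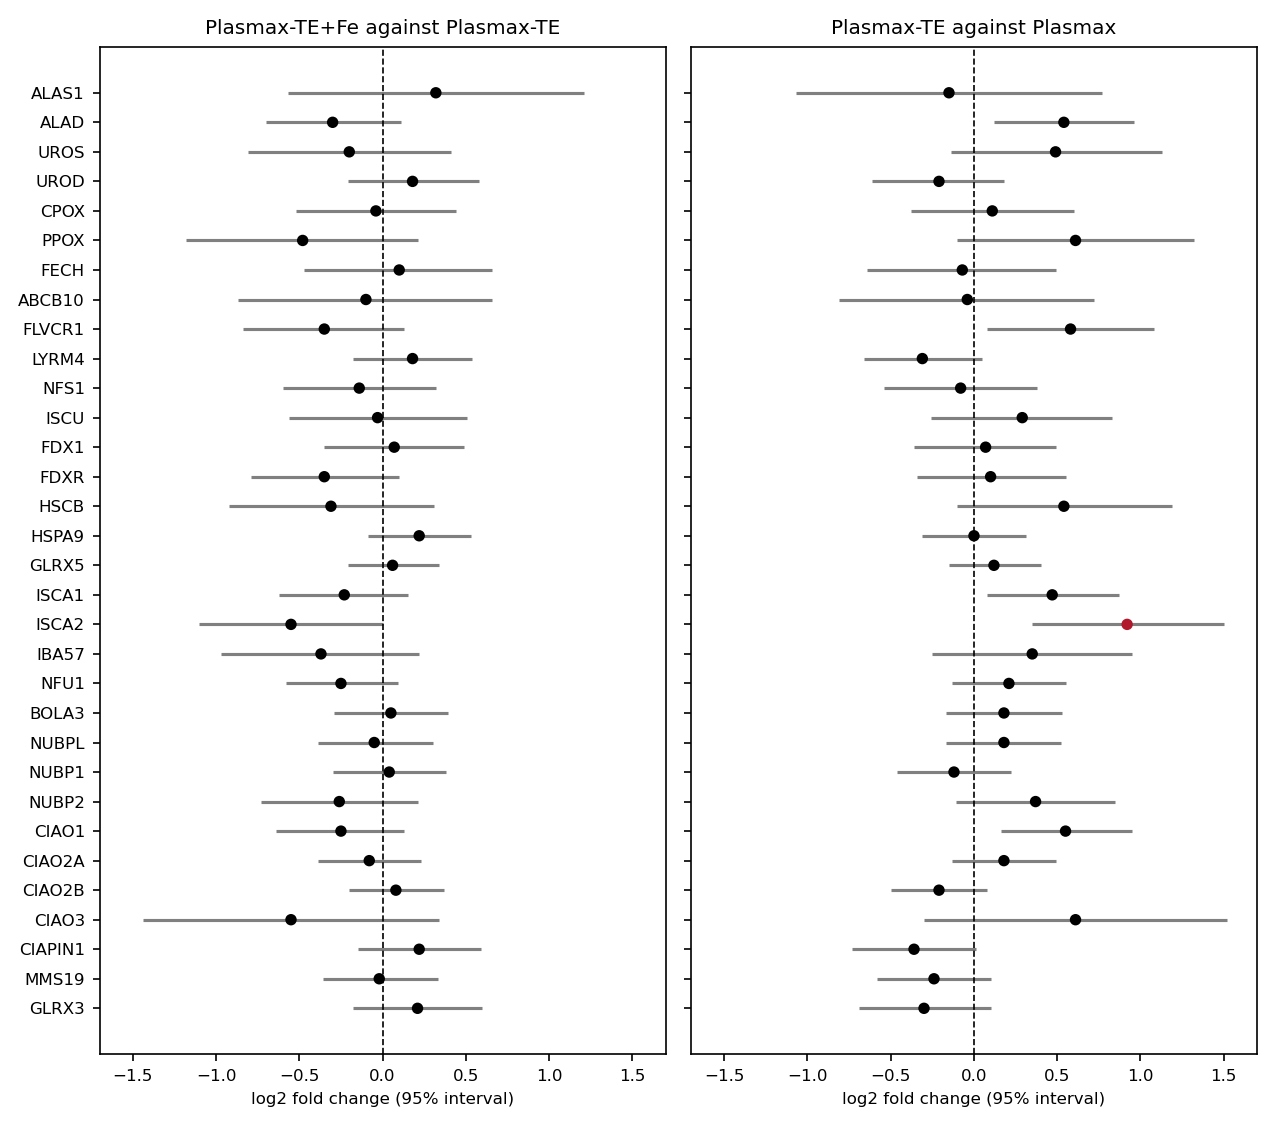
Log2 fold changes of the 32 members with their 95% intervals for Plasmax-TE+Fe against Plasmax-TE and for Plasmax-TE against Plasmax. All 32 intervals contain 0 in the iron comparison, and 5 lie clear of 0 in the trace-element comparison, of which ISCA2 passed the adjusted threshold.

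The pair of libraries that stood apart over all genes also differed in some members. In these libraries (replicate 1 of Plasmax-TE and replicate 2 of Plasmax-TE+Fe), 6 of 32 members lay above all 4 other libraries of the same media and 7 below (18.8% and 21.9%), beside 17.2% and 18.2% of all genes. FDXR was at 179 and 130 CPM in this pair, against 115, 105, 89 and 95.6 CPM in the others (log2 difference 0.59). LYRM4 was at 128 and 148 CPM, against 168, 200, 222 and 191 CPM (-0.49), and GLRX3 at 57.4 and 72.5 CPM, against 86.3, 93.5, 112 and 90.1 CPM (-0.55). The pair thus held the higher FDXR and the lower LYRM4 and GLRX3 values of the media without trace elements. CIAO3, NFS1, IBA57, HSCB and FDX1 were the other members above, and CIAPIN1, MMS19, ISCU, NFU1 and BOLA3 the others below. With both libraries left out the test called 6 members among the 4 media, with GLRX3 and HSPA9 added. It called FDXR and LYRM4 in Plasmax-TE against EMEM (0.53 for LYRM4, edgeR adjusted p = 0.023). In Plasmax-TE+Fe against EMEM it called 5 members, with GLRX3 (0.60, edgeR adjusted p = 0.012) and ISCU (0.80, edgeR adjusted p = 0.049) added and FLVCR1 lost. The members called in the other comparisons were the same, with 0 in Plasmax-TE+Fe against Plasmax-TE.

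**Figure D4:**
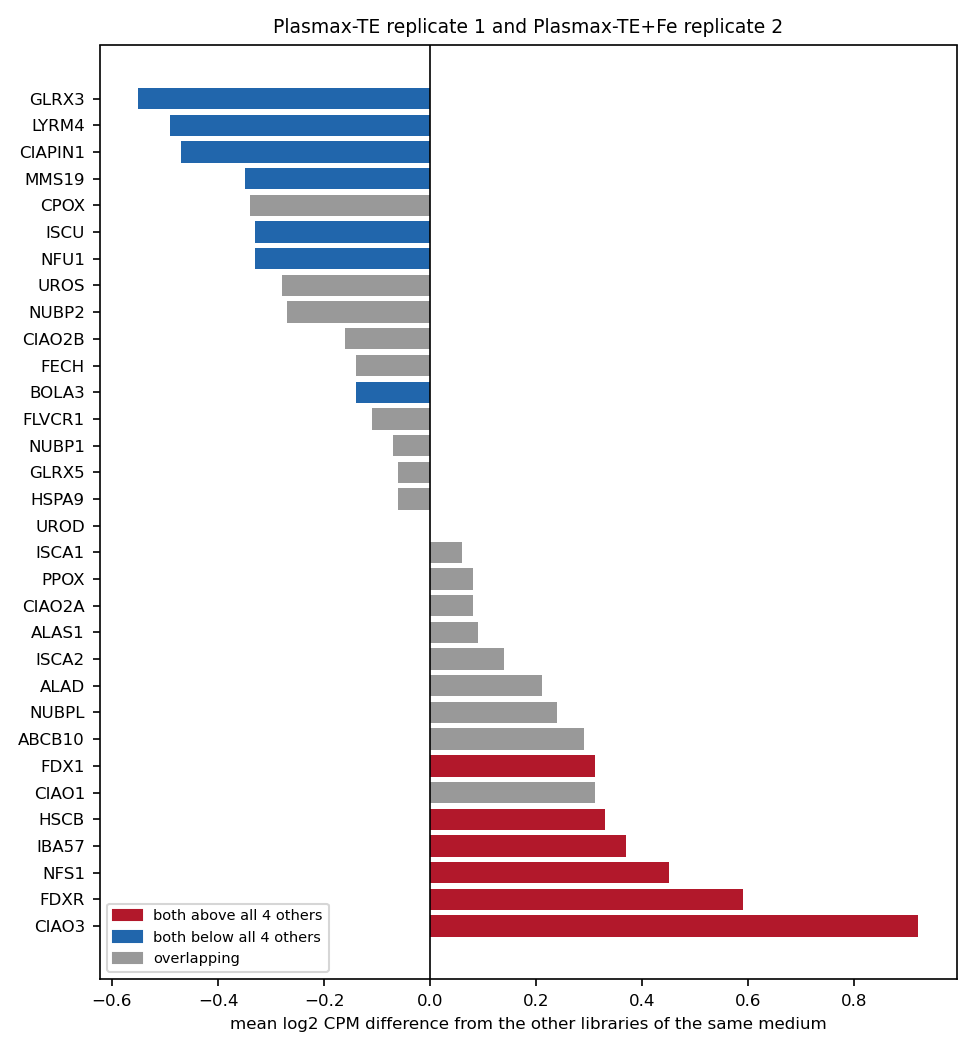
Difference in log2 CPM of each member between the pair of libraries that stood apart (replicate 1 of Plasmax-TE, replicate 2 of Plasmax-TE+Fe) and the other 4 libraries of the same media. Differences run from -0.55 (GLRX3) to 0.92 (CIAO3) among the members that lay outside the other 4 libraries.

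Neighbouring genes of these pathways were looked up from pathway lists by function. Of the symbols listed, older synonyms included, the table held 22 of 23 further heme genes, 11 of 21 further iron-sulfur genes and 24 of 32 iron-sulfur proteins outside the respiratory chain. These were 56 genes in all, since SLC25A39 is listed in both pathways. In Plasmax against EMEM the counts were 3 higher and 2 lower, 0 higher and 2 lower, and 1 higher and 0 lower, in this order (21.4% of all genes called). In Plasmax-TE against Plasmax they were 1 and 0, 1 and 0, and 1 and 1 (11.2% of all genes). In Plasmax-TE against EMEM they were 1 and 0, 0 and 1, and 2 and 0 (4.81% of all genes), and in Plasmax-TE+Fe against EMEM 1 and 1, 1 and 1, and 0 and 0 (9.65% of all genes). In Plasmax-TE+Fe against Plasmax-TE edgeR and DESeq2 called 0 of the 56, where edgeR called 0.258% of all genes. At an unadjusted p under 0.05 they had 8 and 3 of the 56, beside 9.31% and 7.18% of all genes. In Plasmax-TE+Fe against Plasmax both called 0 as well, where edgeR called 1.20% of all genes. At an unadjusted p under 0.05 they had 5 and 3 of the 56 there, beside 13.6% and 11.2% of all genes. Over all comparisons 14 of these genes made 20 calls, and 3 of the 20 held with each library left out in turn (edgeR; DESeq2 called 5 of the 56 in Plasmax against EMEM, where edgeR called 8, and 2 in Plasmax-TE against Plasmax, where edgeR called 4).

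The calls that held were those of SLC48A1 and HPX. SLC48A1 (ENSG00000211584), which moves heme out of endosomes and lysosomes, was at 18.5, 25.2 and 20.9 CPM in Plasmax-TE+Fe, at 23.3, 14.8 and 13.6 CPM in Plasmax-TE, at 21.3, 22.5 and 29.3 CPM in Plasmax, and at 11.6, 11.1 and 11.3 CPM in EMEM. Its EMEM libraries were the lowest of the 12, and it rose in Plasmax by 1.11 ± 0.25 against EMEM (edgeR adjusted p = 0.0036). HPX (ENSG00000110169), the plasma protein hemopexin that binds free heme, was at 3.44, 9.77 and 3.98 CPM in Plasmax-TE+Fe, at 19.5, 8.54 and 14.7 CPM in Plasmax-TE, at 9.41, 12 and 13.0 CPM in Plasmax, and at 3.85, 2.56 and 1.89 CPM in EMEM. It rose in Plasmax-TE by 2.37 ± 0.45 and in Plasmax by 2.09 ± 0.46 against EMEM (edgeR adjusted p = 0.0032 and 0.0029), on 4 to 36 counts per library. In Plasmax-TE+Fe against Plasmax-TE the HPX difference of -1.31 ± 0.39 did not pass with all libraries (edgeR adjusted p = 0.20), and it passed without Plasmax-TE+Fe replicate 2, which stood apart and had the highest HPX of its medium (-1.91, edgeR adjusted p = 0.020). In Plasmax-TE+Fe against Plasmax it did not pass either (-1.03 ± 0.40, edgeR adjusted p = 0.25), but passed without both libraries that stood apart (-1.63, edgeR adjusted p = 0.044). HMOX1 (ENSG00000100292), the inducible heme oxygenase, was at 29.2, 24.2 and 33.9 CPM in Plasmax-TE+Fe, at 29.2, 33.7 and 31.5 CPM in Plasmax-TE, at 24.5, 44.1 and 40.5 CPM in Plasmax, and at 32.7, 38.3 and 27.9 CPM in EMEM, and its media overlapped.

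The remaining calls were each lost with at least 1 library left out. On the heme lists these were SLC25A28 (a mitochondrial iron importer), SLC25A38 (a mitochondrial glycine carrier), ABCG2 (a porphyrin exporter) and HCCS (which attaches heme to cytochrome c), and SLC48A1 in Plasmax-TE+Fe. On the iron-sulfur lists they included SDHAF1 (an assembly factor of succinate dehydrogenase) and the cluster proteins PPAT, PRIM2, CDKAL1, ETFDH and AOX1.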

How the data were processed

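Per the labels' protocols, RNA was extracted with the NucleoSpin RNA kit and made into QuantSeq 3′ libraries. Per the submitters' processing notes, the tools included STAR 2.7.5b, cutadapt 1.16, featureCounts 1.6.3, FastQC 0.72 and limma 3.40.6, with build hg19 (GRCh37). Annotation and strand setting are not given in the sources used here. Raw counts per gene were deposited by the authors and used as they stood. Of 10994 entries, 54 repeats of 53 identifiers were dropped. Each gene had at least 4.03 CPM in some 3 libraries, so rare genes had been removed before deposit.

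In R 4.3.3 with edgeR 4.0.16, filterByExpr (minimum count 10, total 15) removed 481 of 10940 genes, and TMM factors were applied. A quasi-likelihood model by medium took in all 12 libraries, leaving 8 residual degrees of freedom. Each comparison was tested two-sided, and p-values were adjusted by Benjamini-Hochberg over 10459 genes with a threshold of 0.05. Standard errors are the absolute log2 fold change over the square root of F. With 3 libraries a medium, the smallest p of an exact permutation test is 0.1. DESeq2 1.42.0, RLE factors, no low-count filter, both blocks and left-out libraries were alternatives. Members called, and ALAS1, ALAD, FECH, NFS1, ISCU, GLRX5, HSPA9, CIAPIN1 and HMOX1 in any case, are given library by library, and called genes of the further lists are named, except a few that are not reported here. The members, lists and alternatives were chosen with earlier results of these data known. Promoters are RefSeq's (GRCh38.p14). Overlapping genes and pseudogenes are GENCODE's, the former matched by Ensembl identifier over all exons and the latter by symbol.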

Additional observations from a re-analysis of the deposited data

How the results depend on the processing

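RLE factors, DESeq2 and no low-count filter called the same members as edgeR with TMM in all comparisons, and no called gene changed direction under any alternative. A block for the library numbers gave 7 members among the 4 media and 3 in Plasmax-TE against Plasmax. With both libraries that stood apart left out it was 2 in Plasmax-TE against EMEM. With 1 library left out at a time, counts ran from 2 to 5 among the 4 media, 0 to 2 in Plasmax-TE against Plasmax, 4 to 5 in Plasmax against EMEM, 0 to 2 in Plasmax-TE against EMEM and 0 to 5 in Plasmax-TE+Fe against EMEM, and were 0 throughout in the other comparisons. The replicate numbers follow the library runs in EMEM, Plasmax and Plasmax-TE, but not in Plasmax-TE+Fe. Of 18 pairs with the same number 4 had a correlation over 0.1, against 9 of 18 pairs of the same library run. Same-number pairs without Plasmax-TE+Fe are in both sets. With the replicate block 4 members were called in Plasmax against EMEM and 3 in Plasmax-TE+Fe against EMEM, without GLRX3 (adjusted p = 0.066) and LYRM4 (adjusted p = 0.054) in edgeR's test.

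Over all genes the count for Plasmax-TE+Fe against Plasmax-TE was 27 by edgeR, 69 by DESeq2, 152 with the library-number block, 99 without both libraries that stood apart, and 0 to 229 with 1 library left out. With the library-number block the counts were 2835 among the 4 media (1879 without it), 1859 in Plasmax-TE against Plasmax (1176), 372 in Plasmax-TE+Fe against Plasmax (126), 2907 in Plasmax against EMEM (2233), 829 in Plasmax-TE against EMEM (503) and 1569 in Plasmax-TE+Fe against EMEM (1009). Depth limits CIAO3, ABCB10, PPOX, HSCB and ALAS1 most among the members, with at most 19, 21, 23, 31 and 32 counts in a library.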
